A study of Mus musculus with 12 samples.

Results

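The circadian clock genes and BHLHE repressors described here are Bhlhe40, Bhlhe41, Per1, Per2, Per3, Cry1, Cry2, Clock, Dbp and Rora, which were chosen by name and are 10 of the 19938 genes compared. Each is measured by 1 transcript cluster of the Affymetrix Mouse Gene 1.0 ST array. These genes and the other lists below were chosen with earlier results of these data known. Their counts beside shares of all genes are thus a description and not a test. RNA came from MLO-Y4, a mouse cell line with the shape and several markers of osteocytes, after 48 h of culture inside or outside a superconducting magnet whose strong field has a steep gradient (LG-HMF). The groups were μ-g (levitated by the magnetic force, 12 T), 1-g (16 T, with no net magnetic force), 2-g (force added to weight, 12 T) and control (normal earth gravity outside the magnet), with 3 arrays each. All cells were of this 1 line and were grown in the same medium at the same temperature and CO2. The labels call the arrays of a group biological replicates. No source used here says that they came from separate cultures, so p-values measure only the spread between these samples, which may be technical. Because 1-g was held at 16 T, a difference between 1-g and μ-g or 2-g cannot be told apart from the field strength. In contrast, μ-g and 2-g shared 12 T, though at different places in the magnet. Control differed from every magnet group in field and in place of culture, and from μ-g and 2-g also in force. In comparisons with control these cannot be told apart. All RNA was collected at 48 h, so the values give levels at 1 time and no rhythm.

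The mammalian clock is a transcription loop. CLOCK pairs with BMAL1 (Arntl) and binds E-boxes in DNA, which switches on the Per and Cry genes, and the PER and CRY proteins then hold CLOCK-BMAL1 back. BHLHE40 and BHLHE41 (also DEC1 and DEC2) bind E-boxes too and repress, and both genes are known targets of HIF-1, the transcription factor of low oxygen. RORA, a nuclear receptor, drives Arntl, and DBP, an output of the loop, activates genes through D-boxes.

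The E-box is the DNA element that this loop shares, so the stretches that hold it are shown for the members. RefSeq (GRCm38.p6) gave start site windows for 8 of the 10 genes, not for Bhlhe40 and Per2. In the 250 bases before the start, 3 of the 8 (Bhlhe41, Per1 and Cry1) hold the E-box CACGTG, which reads the same on both strands and which 6.02% of all 32851 such windows hold. The E-box is in capitals in 30 bases, 5′ to 3′ on the strand of the gene.
Bhlhe41, chr6:145865556-145865585, minus strand: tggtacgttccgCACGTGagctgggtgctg
Per1, chr11:69098771-69098800, plus strand: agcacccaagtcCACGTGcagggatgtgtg
Cry1, chr10:85185097-85185126, minus strand: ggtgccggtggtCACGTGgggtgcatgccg

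The 250 bases before the start of Bhlhe41 are shown whole, since this gene is both a clock repressor and a member that differed between μ-g and 2-g, again with the E-box in capitals.
Bhlhe41, chr6:145865421-145865670, minus strand: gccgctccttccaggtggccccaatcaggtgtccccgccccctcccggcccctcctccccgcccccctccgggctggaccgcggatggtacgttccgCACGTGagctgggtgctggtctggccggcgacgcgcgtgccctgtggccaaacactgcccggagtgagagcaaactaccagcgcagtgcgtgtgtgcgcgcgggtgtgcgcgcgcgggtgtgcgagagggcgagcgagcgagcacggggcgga
Per3 is the member with a D-box. The letters TTATGTAA, searched on both strands, stand at 2 places in its window and in 0.819% of all windows. They are in capitals below.
Per3, chr4:151044852-151044881, minus strand: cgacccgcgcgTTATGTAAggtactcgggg
Per3, chr4:151044805-151044834, minus strand: cccgcccgcggTTATGTAAcccccgccgtg
A core of the HIF element, ACGTG or GCGTG on either strand, is in 10 of the 11 windows of the members (some genes have several starts) and in 38.6% of all windows, and the first of these cores lies within the E-box. A match of letters is a description and not a bound site.

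In 2-g, 7 of the 10 genes had their highest group mean (Bhlhe40, Bhlhe41, Per1, Per2, Cry2, Dbp and Rora), whereas 2-g was the highest group for 22.5% of all genes. Per3 and Clock were highest in μ-g, and Cry1 in control. Log2 fold changes are differences of group means on the deposited log2 scale, the first named group minus the second. They are given with their standard error (SE) from limma. The words rose and fell are kept for a Benjamini-Hochberg adjusted p under 0.05 over all 19938 genes. By the F test of limma, which asks for any difference among the 4 groups, Per1 (adjusted p = 0.0122) and Bhlhe40 (adjusted p = 0.0485) passed, which is 2 of 10 beside 3.58% of all genes. It called 0 of the 10 without 2-g replicate 3, and 1 without any single 1-g array, 2-g replicate 1 or 2, or replicate 3 of μ-g or control. The changes were small: among the 10 genes and 6 comparisons the largest was 0.44 on the log2 scale, or 1.36-fold.

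**Figure D1:**
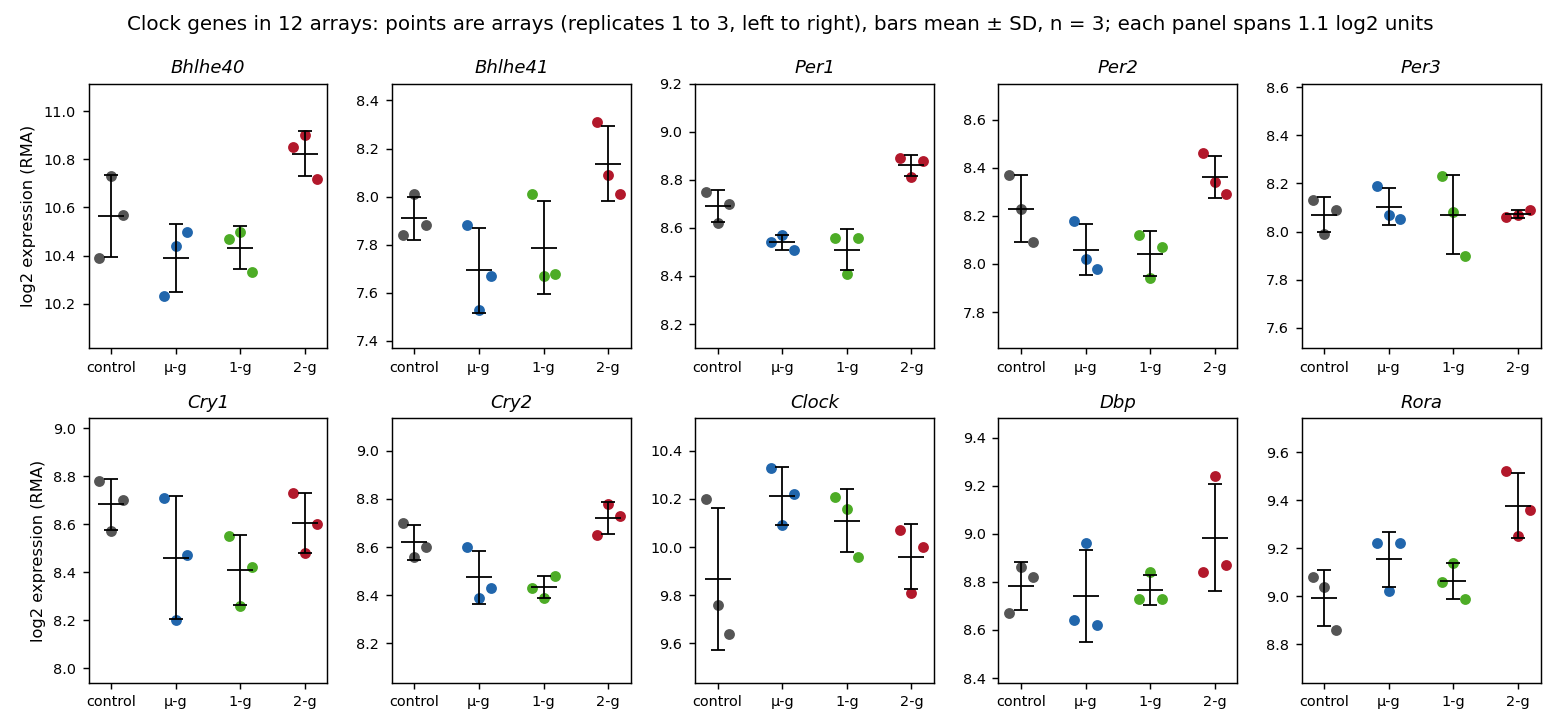
Log2 expression (RMA, vertical axis, each panel 1.1 log2 units high) of the 10 genes in control, μ-g, 1-g and 2-g. Points are arrays in the order of replicates 1 to 3 and bars are the mean ± SD (n = 3). The 3 points of 2-g lie above all points of μ-g and of 1-g for Bhlhe40, Bhlhe41, Per1, Per2, Cry2 and Rora, while the 4 group means of Per3 lie within 0.03 of each other.

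Bhlhe40 and Bhlhe41, the E-box repressors, were lower in μ-g than in 2-g. Bhlhe40 read 10.23, 10.44 and 10.50 in μ-g (mean 10.39 ± 0.14, SD, n = 3) and 10.85, 10.90 and 10.72 in 2-g (mean 10.82 ± 0.09). In 1-g it read 10.47, 10.50 and 10.33 (mean 10.44 ± 0.09), and in control 10.39, 10.73 and 10.57 (mean 10.56 ± 0.17). The 2-g arrays lay above every array of μ-g and 1-g and overlapped with control through its replicate 2. Bhlhe40 fell by 0.43 (log2, SE 0.09, adjusted p = 0.0227), or 1.35-fold, between μ-g and 2-g (set 4). Against 1-g it rose in 2-g by 0.39 (SE 0.09, adjusted p = 0.0429). In set 2 (2-g v.s. control) its value was 0.26 (SE 0.09, adjusted p = 0.149, and 0.0481 with the replicate number as a block, which takes out what arrays of the same number share). The call in set 4 was lost without μ-g replicate 1 (adjusted p = 0.112), 2-g replicate 1 (0.0615) or 2-g replicate 2 (0.0956). The call of 2-g v.s. 1-g was lost without any of the 1-g or 2-g arrays or replicate 3 of μ-g or control, and held in 4 of the 12 fits with 1 array left out, where its adjusted p ran from 0.0286 (without control replicate 1) to 0.149 (without 2-g replicate 2).

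Bhlhe41, the paralog, read 7.88, 7.53 and 7.67 in μ-g (mean 7.69 ± 0.17) and 8.31, 8.09 and 8.01 in 2-g (mean 8.14 ± 0.16). In 1-g it read 8.01, 7.67 and 7.68 (mean 7.78 ± 0.19), and in control 7.84, 8.01 and 7.88 (mean 7.91 ± 0.09). Its order of group means was that of Bhlhe40, namely 2-g, control, 1-g and μ-g, and for both genes each group overlapped with the next in this order. Bhlhe41 fell in set 4 by 0.44 (SE 0.11, adjusted p = 0.0467). This call stood close to the threshold. It held in 2 of the 12 fits with 1 array left out (without replicate 1 of μ-g or of 1-g), and these 12 gave adjusted p from 0.0285 (without 1-g replicate 1) to 0.136 (without μ-g replicate 3), and limma on the 6 arrays of these groups alone gave 0.0678, arrays centred on their medians 0.0526 and quantile normalization 0.0571. Against 1-g the value in 2-g was 0.35 (SE 0.11, adjusted p = 0.123, and 0.0223 with the block).

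The values of genes of low oxygen are given beside those of these repressors. Of 10 reference targets of HIF-1 (Ndufa4l2, Bnip3, Egln1, Egln3, Pdk1, Car9, Adm, Ankrd37, Vegfa and Slc2a1), 9 rose in set 2, beside 1.83% of all genes, and 9 fell in set 4, beside 1.6%. In both sets the exception was Vegfa. These targets were chosen with earlier results of these data known, so their counts are a description and not a test. In set 1 (μ-g v.s. control) Ndufa4l2, Bnip3, Egln1 and Pdk1 fell, beside 0.431% of all genes. In set 3 (1-g v.s. control) these 4 fell as well, beside 0.171%. Neither repressor passed in sets 1, 2 or 3. In these sets the log2 fold change was −0.17, 0.26 and −0.13 for Bhlhe40 and −0.21, 0.23 and −0.12 for Bhlhe41. The median of the 10 targets there was −0.66, 0.92 and −0.70. In 2-g v.s. 1-g 9 of the targets rose, beside 1.35% of all genes. The median log2 fold change of the 10 targets was −1.50 in set 4, beside −0.25 for the 10 clock genes and 0.03 for all genes. The part of the low-oxygen genes in the values of Bhlhe40 and Bhlhe41 was not tested.

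Per1, a repressor of the loop that is also induced quickly by outside signals, had the smallest adjusted p of the 10 genes by the F test. It read 8.54, 8.57 and 8.51 in μ-g (mean 8.54 ± 0.03), 8.56, 8.41 and 8.56 in 1-g (mean 8.51 ± 0.09), 8.75, 8.62 and 8.70 in control (mean 8.69 ± 0.07) and 8.89, 8.81 and 8.88 in 2-g (mean 8.86 ± 0.04). Every 2-g array lay above every control array, and every control array above every array of μ-g and 1-g. Per1 fell in set 4 by 0.32 (SE 0.06, adjusted p = 0.00987), which is 1.25-fold. It rose in 2-g against 1-g by 0.35 (SE 0.06, adjusted p = 0.00661). Both calls held in each of the 12 fits with 1 array left out, with adjusted p up to 0.0495 (set 4, without μ-g replicate 3) and 0.036 (2-g v.s. 1-g, without 2-g replicate 3). Against control none of the steps passed: the log2 fold change was −0.15 for μ-g (adjusted p = 0.238), 0.16 for 2-g (adjusted p = 0.149) and −0.18 for 1-g (adjusted p = 0.233), each with an SE of 0.06.

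Per2, which works in the same repressor complex, had the pattern of Per1 with a wider spread. It read 8.18, 8.02 and 7.98 in μ-g, 8.12, 7.94 and 8.07 in 1-g, 8.46, 8.34 and 8.29 in 2-g and 8.37, 8.23 and 8.09 in control. The 2-g arrays lay above those of μ-g and 1-g and overlapped with control. Per2 had a value of −0.31 (SE 0.08, adjusted p = 0.0624) in set 4 and of 0.32 (SE 0.08, adjusted p = 0.0602) in 2-g v.s. 1-g. With the block it passed in both, at adjusted p = 0.00391 and 0.00357.

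Per3, the third paralog, showed no difference that these arrays could resolve. Its arrays ran from 7.90 to 8.23 over the whole series, with both ends in 1-g, and the 2-g arrays read 8.06, 8.07 and 8.09. Its value in set 4 was 0.03 (SE 0.07, adjusted p = 0.903), with a 95% interval from −0.13 to 0.19. For Per1 the same interval ran from −0.44 to −0.19. Whether the 2 genes differ in this response was not tested.

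Cry2 and Cry1, the cryptochromes that close the loop with the PER proteins, both had higher means in 2-g and control than in μ-g and 1-g. Cry2 read 8.60, 8.39 and 8.43 in μ-g (mean 8.47 ± 0.11), 8.43, 8.39 and 8.48 in 1-g (mean 8.44 ± 0.05), 8.65, 8.78 and 8.73 in 2-g (mean 8.72 ± 0.07) and 8.70, 8.56 and 8.60 in control (mean 8.62 ± 0.08). The 2-g arrays lay above all of μ-g and 1-g and overlapped with control. Cry2 rose in 2-g against 1-g by 0.29 (SE 0.06, adjusted p = 0.0365), a call that held in 6 of the 12 fits with 1 array left out (adjusted p up to 0.134, without 2-g replicate 2) and was lost without any of the 1-g arrays, replicate 3 of μ-g or replicate 2 or 3 of 2-g. Its adjusted p was 0.0568 with arrays centred on their medians and 0.0508 with a trended and robust prior. In set 4 its value was −0.25 (SE 0.06, adjusted p = 0.0569, and 0.0232 with the block). Cry1 was highest in control, where it read 8.78, 8.57 and 8.70, beside 8.71, 8.20 and 8.47 in μ-g, 8.55, 8.26 and 8.42 in 1-g and 8.73, 8.48 and 8.60 in 2-g. Replicate 2 was the lowest array and replicate 1 the highest in all 4 groups, so much of the spread of Cry1 followed the replicate number. Its value in set 3 was −0.27 (SE 0.11, adjusted p = 0.414), and with the block it passed (SE 0.06, adjusted p = 0.0261).

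Clock, the activator that drives the Per and Cry genes, had its highest group mean in μ-g and its lowest in control. It read 10.33, 10.09 and 10.22 in μ-g (mean 10.21 ± 0.12), 10.21, 10.16 and 9.96 in 1-g, 9.81 to 10.07 in 2-g (mean 9.96 ± 0.14) and 10.20, 9.76 and 9.64 in control (mean 9.86 ± 0.29). The μ-g arrays lay above those of 2-g, and control replicate 1 stood well above the other two controls. Neither its 0.35 in set 1 (adjusted p = 0.216) nor its 0.25 in set 4 (adjusted p = 0.328) passed, both with an SE of 0.13. Without control replicate 1 the adjusted p in set 1 was 0.0506.

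Rora, the nuclear receptor that activates Arntl, was the member that rose against control. It read 9.52, 9.25 and 9.36 in 2-g (mean 9.37 ± 0.14) and 9.08, 9.04 and 8.86 in control (mean 8.99 ± 0.12), with 9.22, 9.02 and 9.22 in μ-g (mean 9.15 ± 0.12) and 9.06, 9.14 and 8.99 in 1-g (mean 9.06 ± 0.08). The 2-g arrays lay above all other arrays, while μ-g, 1-g and control overlapped. Its rise in set 2 was 0.38 (SE 0.08, adjusted p = 0.0271), or 1.30-fold. The call was lost without 2-g replicate 1 (adjusted p = 0.0816), 2-g replicate 3 (0.0934) or control replicate 3 (0.12), and with limma on the 6 arrays of 2-g and control alone (0.0686). In 2-g v.s. 1-g its value was 0.31 (SE 0.08, adjusted p = 0.0768, and 0.0217 with the block). Arntl itself passed in no comparison by limma. It had values of 0.11 in set 2 (SE 0.06, adjusted p = 0.366) and −0.11 in set 4 (SE 0.06, adjusted p = 0.325).

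Dbp, the output gene, read 8.64, 8.96 and 8.62 in μ-g, 8.73, 8.84 and 8.73 in 1-g, 8.84, 9.24 and 8.87 in 2-g and 8.67, 8.86 and 8.82 in control. Replicate 2 was the highest array in all 4 groups. Its value in set 4 was −0.24 (SE 0.11, adjusted p = 0.279), and with the block it passed (SE 0.07, adjusted p = 0.0369).

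**Figure D2:**
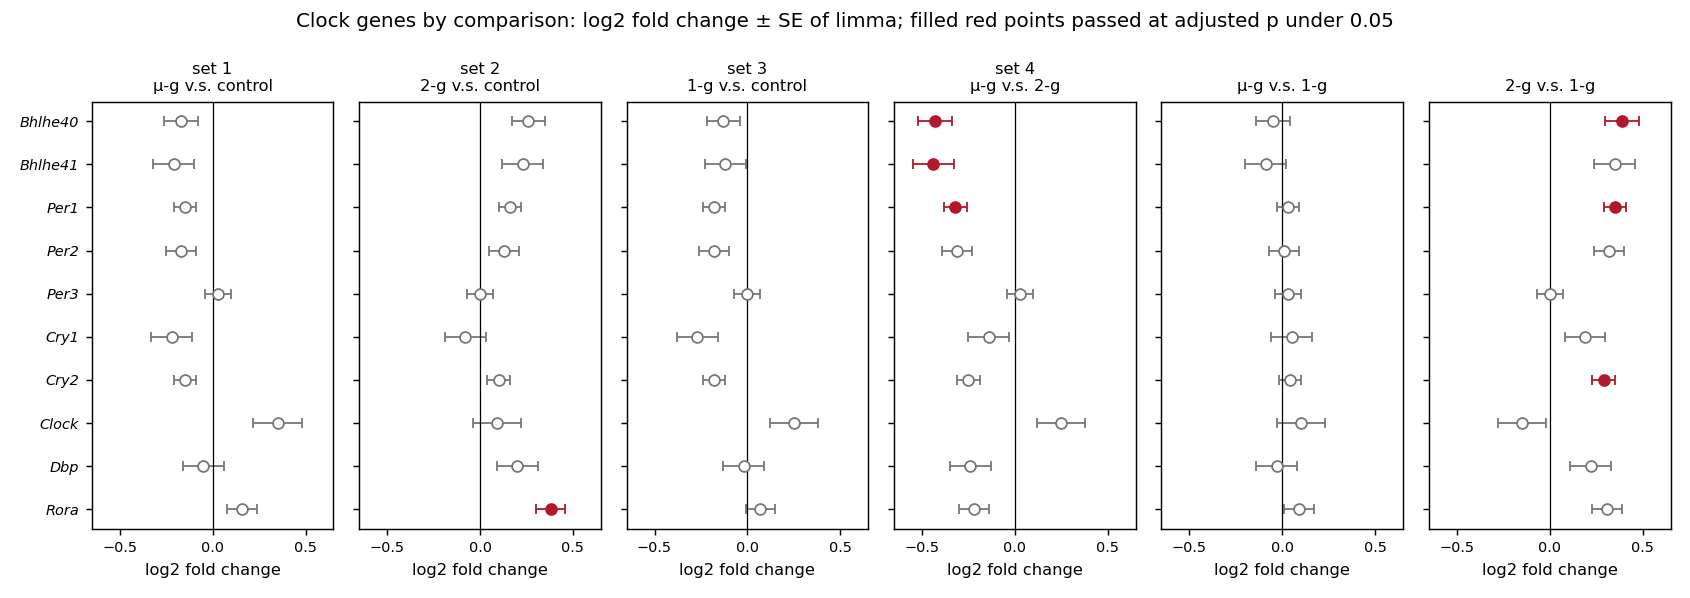
Log2 fold change (horizontal axis) with its SE for the 10 genes in the 6 comparisons, from limma over the 12 arrays. Filled red points passed at adjusted p under 0.05: Rora in set 2, Bhlhe40, Bhlhe41 and Per1 in set 4, and Bhlhe40, Per1 and Cry2 in 2-g v.s. 1-g, none beyond 0.44 in size.

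By comparison, the calls of the 10 genes lay where 2-g was one of the groups. In set 4, 3 of 10 fell and 0 rose, beside 3.08% of all genes called and 1.6% that fell. With the block 6 of 10 were called, all of them lower, beside 10% of all genes called in either direction. The median log2 fold change of the 10 was −0.25, beside 0.03 over all genes. The arrays of the 2 groups did not overlap for 7 of the 10, beside 21.1% of all genes. In 2-g v.s. 1-g, 3 of 10 rose and 0 fell, beside 2.45% of all genes called and 1.35% that rose. With the block 6 were called, all of them higher, beside 8.32% of all genes called in either direction. The median there was 0.30, beside −0.02 over all genes, and 7 of the 10 did not overlap, beside 19.5%. Set 4 and 2-g v.s. 1-g share the 2-g arrays, so the second is no independent repeat of the first. In set 2, 1 of 10 rose (Rora), beside 3.42% of all genes called and 1.83% that rose, and the median was 0.15. With the block 2 were called, both higher (Rora and Bhlhe40), beside 10.3% of all genes called in either direction.

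In set 1 limma called 0 of the 10 genes, beside 0.943% of all genes, and 1 was higher (Clock) and 2 were lower (Per1 and Cry2) at unadjusted p under 0.05, beside 14% of all genes. In set 3 it called 0, beside 0.356% of all genes. At unadjusted p 4 were lower (Per1, Per2, Cry1 and Cry2), beside 10.8% of all genes in either direction. With the block 1 was lower (Cry1), beside 2.39% in either direction. Between μ-g and 1-g limma called 0 of the 10 and 0% of all genes, and 0 of the 10 at unadjusted p, beside 2.19%. For Per1 the difference between μ-g and 1-g was 0.03, with a 95% interval from −0.09 to 0.16, and for Bhlhe40 it was −0.05, with an interval from −0.24 to 0.15.

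**Figure D3:**
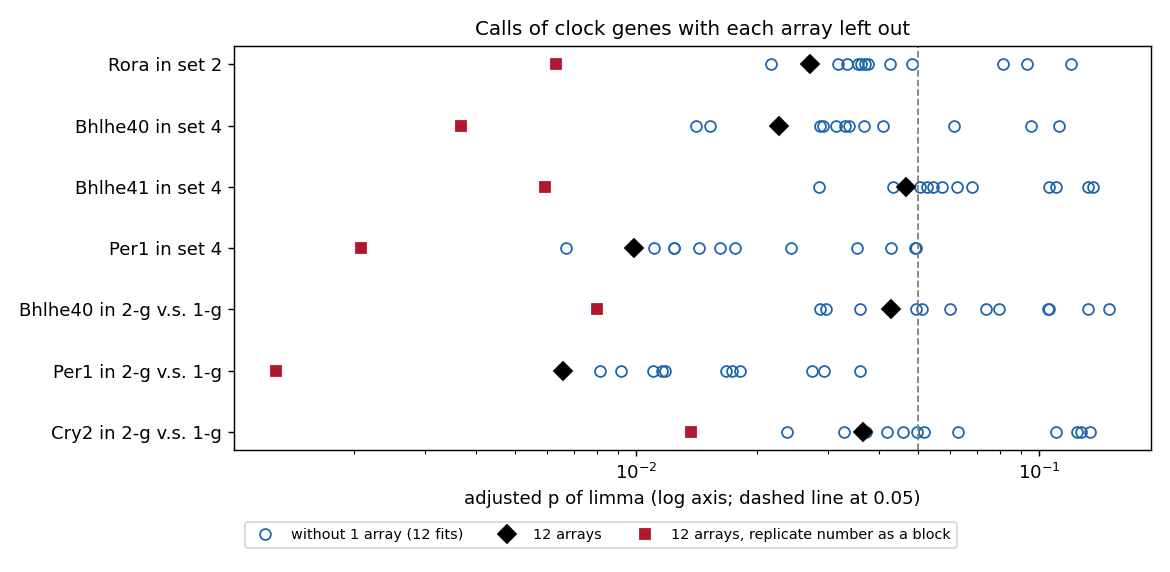
Adjusted p of limma (horizontal log axis, dashed line at 0.05) for each called gene and comparison, with all 12 arrays (black diamonds), with each array left out in turn (blue circles, 12 fits) and with the replicate number as a block (red squares). The circles of Per1 stay at or below 0.0495 in both comparisons, while those of the other 4 genes cross the line.

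Among 35 measured further clock genes, a list of partners, nuclear receptors, kinases, ubiquitin ligases and outputs, 4 were called in at least 1 comparison, namely Ciart, Id2, Nampt and Nr1d2. Ciart (CHRONO) is a repressor of CLOCK-BMAL1, and it had changes larger than any of the 10 genes. It read 9.80, 9.55 and 9.25 in μ-g, 9.85, 9.40 and 9.52 in 1-g, 10.78, 10.68 and 10.52 in 2-g and 10.46, 10.26 and 10.17 in control. Every 2-g array lay above every control array, and these above every array of μ-g and 1-g. Ciart fell in set 4 by 1.13 (SE 0.14, adjusted p = 0.000705), or 2.19-fold, and rose in 2-g v.s. 1-g by 1.07 (SE 0.14, adjusted p = 0.0011). In set 1 it fell by 0.77 (SE 0.14, adjusted p = 0.0278), a call lost without μ-g replicate 3 (0.109) or any of the control arrays (0.0683, 0.0772 and 0.0517 for replicates 1, 2 and 3), and with limma on the 6 arrays of μ-g and control alone (0.102). In set 3 its value was −0.71 (SE 0.14, adjusted p = 0.0513, and 0.00119 with the block). A second cluster of Ciart gave −0.94 in set 4.

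The stretch before the start of Ciart is shown because it holds 3 E-boxes, in capitals, where Bhlhe41, Per1 and Cry1 hold 1 each.
Ciart, GRCm38.p6, chr3:95882255-95882356, minus strand: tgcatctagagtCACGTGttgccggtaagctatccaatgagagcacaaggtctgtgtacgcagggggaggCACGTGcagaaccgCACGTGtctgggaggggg
The window of Id2 holds none of the motifs searched, that is E-box, D-box, either HIF core and the ROR element AGGTCA.

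**Figure D4:**
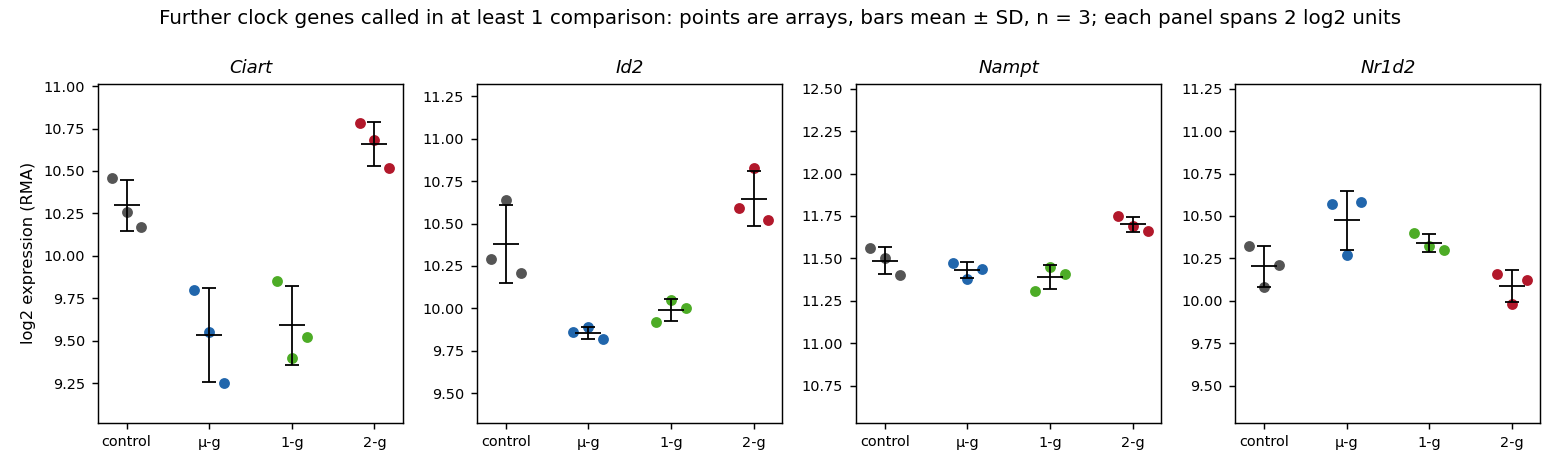
Log2 expression (RMA, vertical axis, each panel 2 log2 units high) of Ciart, Id2, Nampt and Nr1d2 in the 4 groups. Points are arrays and bars are the mean ± SD (n = 3), and the 2-g points lie above those of μ-g and 1-g for Ciart, Id2 and Nampt and below them for Nr1d2.

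Id2, an inhibitor of helix-loop-helix proteins, read 9.86, 9.89 and 9.82 in μ-g, 9.92 to 10.05 in 1-g, 10.59, 10.83 and 10.52 in 2-g and 10.29, 10.64 and 10.21 in control. It fell in set 4 by 0.79 (SE 0.10, adjusted p = 0.00108) and rose in 2-g v.s. 1-g by 0.66 (SE 0.10, adjusted p = 0.00446). In set 1 it fell by 0.52 (SE 0.10, adjusted p = 0.0336), and this call was lost without μ-g replicate 1 (0.151), μ-g replicate 3 (0.14), 1-g replicate 3 (0.0533), control replicate 1 (0.0563) or control replicate 2 (0.0831), and with those 6 arrays alone (0.124). Nampt, the enzyme of NAD salvage and a clock output, averaged 11.43 ± 0.05 in μ-g, 11.39 ± 0.07 in 1-g, 11.70 ± 0.05 in 2-g and 11.49 ± 0.08 in control. It fell in set 4 by 0.27 (SE 0.06, adjusted p = 0.0222; up to 0.0702 with 1 array left out) and rose in 2-g v.s. 1-g by 0.31 (SE 0.06, adjusted p = 0.0133; 0.064 without 1-g replicate 1). Its set 4 call was lost without any of the μ-g or 2-g arrays.

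Among the called further genes, Nr1d2 (REV-ERBβ), a nuclear receptor that represses Arntl, went the other way. It read 10.57, 10.27 and 10.58 in μ-g, 10.40, 10.32 and 10.30 in 1-g, 10.16, 9.98 and 10.12 in 2-g and 10.32, 10.08 and 10.21 in control. The μ-g arrays lay above those of 2-g and overlapped with 1-g and control. In set 4 it rose by 0.39 (SE 0.09, adjusted p = 0.0315). This call was lost without μ-g replicate 1 (0.146), μ-g replicate 3 (0.124), 2-g replicate 2 (0.127) or 2-g replicate 3 (0.0838), and with limma on the 6 arrays of μ-g and 2-g alone (0.0723). Nr1d1, the paralog of Nr1d2, did not pass in set 4 by limma (0.17, SE 0.06, adjusted p = 0.181). Its μ-g arrays also lay above those of 2-g. Of the 35 genes, then, 1 rose and 3 fell in set 4 (11.4%, beside 3.08% of all genes), 2 fell in set 1 (Ciart and Id2, 5.71%, beside 0.943%) and 3 rose in 2-g v.s. 1-g (Ciart, Id2 and Nampt, 8.57%, beside 2.45%). With the block 7 were called in set 4 (3 higher and 4 lower), beside 10% of all genes. In 2-g v.s. 1-g the block called 6 (3 higher and 3 lower), beside 8.32%. Limma called 0 in set 2 (6 higher and 1 lower at unadjusted p, beside 16.7% of all genes), 0 in set 3 (3 higher and 2 lower, beside 10.8%) and 0 between μ-g and 1-g (0 at unadjusted p). With the block 5 passed in set 2, beside 10.3% of all genes, namely Ciart (0.37, adjusted p = 0.00848), Id2 (0.26, 0.0332), Nampt (0.22, 0.0296), Nfil3 (0.27, 0.0332) and Wdr5 (−0.19, 0.0264). In set 3 the block gave 3, beside 2.39%, namely Ciart, Id2 (−0.39, adjusted p = 0.0148) and Prkaa2 (0.30, adjusted p = 0.0426). The median of the 35 in set 4 was 0.00, beside 0.03 over all genes.

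The genes whose values over the 12 arrays, each centred on the mean of the gene, lay nearest to those of Bhlhe40 were Ppp1r3b, Ppp1r3g and Hacd1, with root mean square differences of 0.0714, 0.0725 and 0.0773 on the log2 scale, beside a median of 0.221 over all genes. Ppp1r3b and Ppp1r3g encode subunits that target a phosphatase to glycogen. Nearest to Per1 were Rnf126 (0.0529), Mgat1 (0.0655) and Grcc10 (0.0677), beside a median of 0.182. Rnf126 encodes a ubiquitin ligase and Mgat1 an enzyme of N-glycan synthesis. In set 4 the 6 genes had log2 fold changes of −0.40 (Ppp1r3b), −0.35 (Ppp1r3g), −0.41 (Hacd1), −0.34 (Rnf126), −0.32 (Mgat1) and −0.25 (Grcc10), which the choice by likeness fixes to a large part.

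Of 9 measured osteocyte markers, Col1a1 rose in set 2 (0.41, adjusted p = 0.0142), beside 1.83% of all genes. It also rose in 2-g v.s. 1-g (0.38, adjusted p = 0.0208), beside 1.35%. Dmp1, Phex and Mepe, which define osteocytes, ranked in the lowest 16.7%, 12.4% and 6.23% of gene levels, and Pdpn and Gja1 at 97.8% and 97.4%. Levels of different clusters are not comparable in a strict sense, and the deposited values carry no detection call. Single genes listed as markers of other cell types differed with 2-g as well. Cd68, 1 of 7 macrophage markers, rose in set 4 (0.55, adjusted p = 0.0185), beside 1.48% of all genes. The receptor Csf1r of the same list had the opposite sign there (−0.15, adjusted p = 0.2) with groups that did not overlap. Ctsk, 1 of 4 osteoclast markers, rose in set 4 by 0.58 (adjusted p = 0.00498), beside the same 1.48%. It fell in set 2 by 0.50 (adjusted p = 0.0137), beside 1.58% of all genes. The summed linear level of the macrophage markers ran from 1536 to 1639 in 2-g, from 1861 to 1904 in μ-g, from 1845 to 2016 in 1-g and from 1742 to 1992 in control, with Ptprc and Adgre1 at the lowest 17.8% and 13.2% of gene levels. That of the osteoclast markers ran from 4085 to 4991 in 2-g, from 5823 to 7236 in μ-g, from 6193 to 7052 in 1-g and from 5865 to 6534 in control. Linear sums follow the brightest markers. Ctsk had a mean log2 level of 12.46, beside 6.81 for Acp5, and Cd68 had 9.64, the highest of the macrophage list. The osteoclast sum is thus close to Ctsk alone. In set 4 Acp5, Calcr and Dcstamp did not pass by limma (adjusted p = 0.845, 0.321 and 0.893). All cells were of 1 line, so these values are levels of single genes and do not show that other cell types were present. In such bulk RNA, the number of cells that express a gene and the RNA per cell cannot be told apart. The part of these markers in the values of the clock genes was not tested. For 7 endothelial and adipocyte markers, limma called 0 of 42 values over the 6 comparisons, 6 at unadjusted p and 1 with the block. By comparison, limma called from 0% to 3.42% of all genes. The shares ran from 2.19% to 17.1% at unadjusted p and from 0% to 10.3% with the block.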

How the data were processed

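Gene expression was measured in 12 samples of MLO-Y4 cells on Affymetrix Mouse Gene 1.0 ST arrays. RMA had been run by the authors, who deposited its output on the log2 scale (28856 transcript clusters); the sources used here do not name the RMA software. Array medians ran from 7.04 to 7.12, Pearson's r across clusters from 0.996 to 0.998 within groups, and no arrays were identical. The number of arrays limits the precision.

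Gene symbols came from RefSeq by the identifier that the platform table pairs with a cluster (21789 with 1 symbol, 1621 with several, 5446 with none or not listed, 91 identifiers without a match, which kept the platform symbol). For the 999 genes with several clusters the brightest on average was used. Of 40 further clock genes 35 were compared and the others are not analysed here, nor are Bglap and Cfd of the markers.

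Groups were compared with limma 3.58.1 in R 4.3.3 in 1 fit of 12 arrays and 19938 genes (8 residual and 4.92 prior degrees of freedom), tested on simulated data, with Benjamini-Hochberg adjustment. With 3 arrays a group, 0.1 is the smallest two-sided p that an exact permutation test allows. The text names all 10 members, the further clock genes called in any comparison, and, for members called by the F test, the 3 genes nearest in root mean square difference. Nfil3, Wdr5, Prkaa2, Nr1d1, Cd68, Csf1r, Ctsk, Col1a1 and the 4 HIF-1 targets that fell in set 1 were named after their values were seen. The members and lists were chosen with earlier results of these data known.

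All groups share the replicate numbers 1 to 3. Deviations from group means correlated at 0.342 on average between arrays of the same number and at −0.171 between others. Because the deviations within a group cancel out, the second value follows largely from the first and adds no separate evidence. Every same-numbered pair exceeded 0.1 in all comparisons except set 1, where the pair of replicates 3 had 0.0179. The pairing comes from these values, since no source says what the numbers stand for. Alternatives were the 6 arrays of a comparison, the block, genes above the median level of 7.50, arrays centred on their medians, quantile normalization, a trended and robust prior, the threshold of the methods (FC > 1.5 and unadjusted P), the mean of all clusters of a gene, each array left out, and, chosen after seeing the data, a prior from all deposited clusters.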

Additional observations from a re-analysis of the deposited data

How the results depend on the processing

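No value of the 10 genes or of Ciart, Id2, Nampt and Nr1d2 that was called under any setting changed its sign against the fit of 12 arrays, and 1656 of their values kept their side of the threshold, while 72 lost and 36 gained a call. The replicate block raised the number of the 10 genes called by the F test to 7 (beside 13.3% of all genes). In set 1 it gave 2 (Cry1 at −0.22, adjusted p = 0.0365, and Clock at 0.35, adjusted p = 0.0382). It gave 2 in set 2, 1 in set 3, 6 in set 4 and 6 in 2-g v.s. 1-g. Of the 35 further clock genes the block gave 5 in set 1, 5 in set 2, 3 in set 3, 7 in set 4 and 6 in 2-g v.s. 1-g. Of all genes it called 5.93% in set 1, 10.3% in set 2, 2.39% in set 3, 10% in set 4 and 8.32% in 2-g v.s. 1-g. At the threshold of the methods, 0 of the 10 were called in set 2, set 4 and 2-g v.s. 1-g, since none exceeded 1.5-fold. An unadjusted F test gave 6 of the 10, and its share of all genes was not computed. At the threshold of the methods the further genes gave 1 in set 1 (beside 0.206% of all genes), 1 in set 3 (0.14%), 2 in set 4 (0.707%) and 2 in 2-g v.s. 1-g (0.652%). A fit of only 6 arrays called 0 of the 10 in set 2 and 0 of the further genes in set 1. Among genes above the median level the F test called 4 and set 4 held 5 of the 10, with 1 further gene in set 2 and 1 in set 3. Quantile normalization gave 4 by the F test and 1 further gene in each of set 2 and set 3, and the mean of all clusters 1 in set 3. Shares of all genes were not computed for genes above the median level, quantile normalization or the mean of all clusters. A prior from all deposited clusters left 1 by the F test, and Bhlhe41 in set 4 (adjusted p = 0.0582) and Bhlhe40 in 2-g v.s. 1-g (adjusted p = 0.0532) then did not pass. Cry2 in set 4 passed among genes above the median level (adjusted p = 0.0403) and after quantile normalization (0.0401), Per2 in set 4 (0.0434) and in 2-g v.s. 1-g (0.0413) passed under the former, and Rora in 2-g v.s. 1-g (0.0342) under the latter. With 1 array left out, the numbers of the 10 genes ran from 0 to 3 by the F test, 0 to 1 in set 2, 1 to 3 in set 4 and 1 to 4 in 2-g v.s. 1-g, and stayed at 0 in set 1, set 3 and μ-g v.s. 1-g. The further genes ran from 0 to 3 in set 1, 0 to 1 in set 2, 0 to 1 in set 3, 2 to 5 in set 4 and 2 to 3 in 2-g v.s. 1-g. The deposited values hold no signal over background, so how far it limits low genes is not known. The cause of these shifts was not tested.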
